A study of Mus musculus with 16 samples.

Results

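Neat1 is a long noncoding RNA of the nucleus, and its crosslinking to the RNA-binding protein Dazl was followed over 62 regions of coverage out of 8338 in the whole dataset. The regions were chosen by position: every region inside the gene span on chromosome 19, from 5824708 to 5845480 in mm10, was taken, and none of them lay in a second gene of the RefSeq table. A region is a stretch of listed intervals no more than 10 nt apart in any library, and its coverage is the sum over its positions of the deposited score. Neat1 had the highest mean coverage of the 3203 genes with a region, 891 over the 12 libraries, and was chosen with that known, so its level is given as a description. That level is a sum over 62 regions in 20773 nt. Malat1, a neighbouring nuclear RNA, had 821 over 38 regions in 6983 nt.

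Neat1 RNA is the scaffold of paraspeckles, nuclear bodies that gather RNA-binding proteins such as Sfpq and Nono. The gene makes a short polyadenylated isoform and a long isoform that begin at the same 5′ end. Only the long isoform builds paraspeckles, and it carries the middle and 3′ parts of the RNA. Dazl, a germ cell protein with an RNA recognition motif, is mostly known as a cytoplasmic regulator of mRNA in germ cells.

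The cells were GC-1 spg cells, a mouse line derived from spermatogonia, and the series used 1 monoclonal derivative in which doxycycline induces Dazl, so all groups carry the same transgene and come from the same clone. Living cells were crosslinked with a pulsed ultraviolet laser at 1 or 2.6 mW, at a Dazl level called 1x or a higher one called 4.2x, for 30, 180 or 680 s, and the RNA bound to Dazl was sequenced by the iCLIP variant KIN-CLIP. Each of these 12 conditions had 1 library and no replicate. The 4 samples of 0 s were not analysed here, so there is no uncrosslinked background, and RNA abundance was not measured in these files, so more RNA and more Dazl on each RNA cannot be told apart. Of 9 spermatogonial marker genes only Sall4 had a region, with a mean coverage of 1.67, and Dazl itself had none. Of 5 Sertoli cell genes 2 were listed, Wt1 with 12.8 and Dhh with 12.3, as were 1 of 2 endothelial, 0 of 3 Leydig cell and 0 of 2 macrophage genes. These markers do not settle the cell type, since a gene with no region may still be expressed.

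Library totals ran from 11271 to 252932, and the deposited values do not look like separate draws. At 2.6 mW and 4.2x Dazl, 0 of the 62 Neat1 regions were lower at 680 s than at 30 s, and 25 (40.3%) had the same whole value at both times, against 45.5% of all regions. At 1 mW 0 of the Neat1 regions were lower at 680 s than at 180 s at either Dazl level. The counts of lower regions in these comparisons were also 0 over all 8338 regions. In the 1 mW 1x, 1 mW 4.2x and 2.6 mW 1x series 1, 2 and 2 Neat1 regions were lower at 680 s than at 30 s. Over all regions 73, 607 and 666 were. The tests below take libraries as independent, and whether or how the values were linked before deposit was not stated in the labels.

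The map of Neat1 showed regions along nearly its whole length. Because Neat1 is transcribed from the minus strand, positions are counted from the upper coordinate, which is the 5′ end, and regions are numbered from it. The first region began 88 nt from the 5′ end and the last, region 62, 19971 nt from it, in an RNA of 20773 nt. Of the 62 regions 59 were exactly 17 nt long, and together they covered 1113 nt, or 5.36% of the RNA. Neighbouring regions began a median of 168 nt apart. The widest bare stretch lay between regions 36 and 37, from 9150 to 12254 nt, which is 3105 nt with no listed coverage. An unlisted stretch is not shown to be unbound, since how the authors selected sites was not stated in the labels.

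Regions were densest in the first part of the RNA and in a stretch toward its 3′ end. The first 3200 nt, taken as the part shared by the short and the long isoform, held regions 1 to 18, or 5.63 per kb, and the remaining 17573 nt, found only in the long isoform, held 44, or 2.50 per kb. A stretch of the long isoform, from 16001 to 19200 nt, was as dense, with 17 regions and 5.31 per kb. The stretches from 9601 to 12800 nt and from 12801 to 16000 nt held 2 and 5 regions, and the last 1573 nt held 2, or 1.27 per kb. These counts describe the authors' selected sites and were not tested.

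Single regions were about equally high in both parts. The mean over the 12 libraries ran from 7.33 to 20.5 in the short part, with a median of 13.9, and from 6.67 to 36.4 in the long part, with a median of 14.0. All 8338 regions had a median of 11.8 and the 38 regions of Malat1, the neighbouring nuclear speckle RNA, a median of 20.3. Coverage per kb was between 1.36 and 2.26 times as high in the short part as in the long part over the 12 libraries. The region medians of the 2 parts differed less in most libraries. At 30 s, 2.6 mW and 1x Dazl they were 5.5 in the short part and 9 in the long part. At 680 s, 2.6 mW and 4.2x Dazl coverage was 164 per kb in the short part and 83.7 per kb in the long part.

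**Figure D1:**
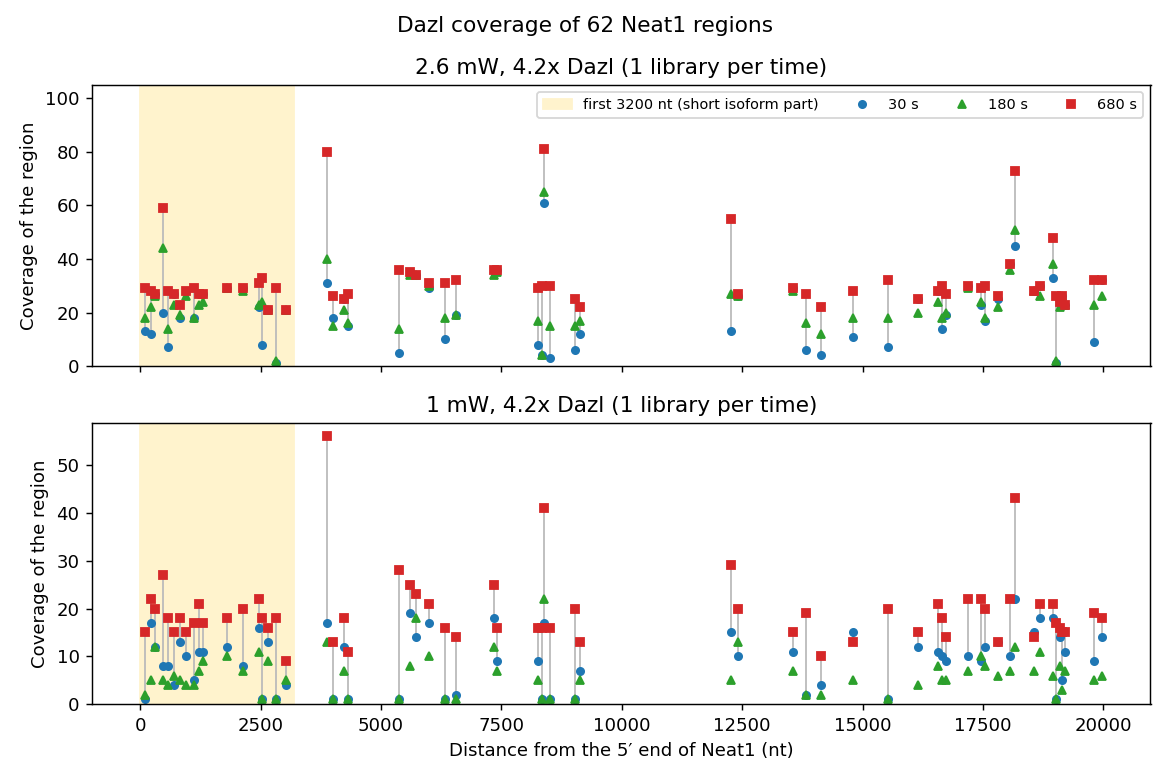
Coverage of each of the 62 Neat1 regions against the distance of its middle from the 5′ end in nt, at 4.2x Dazl with 2.6 mW (upper panel) and 1 mW (lower panel); symbols are the libraries of 30, 180 and 680 s, and the shaded block is the first 3200 nt. Regions crowd the shaded block and the stretch from 16001 to 19200 nt, none lies between 9150 and 12254 nt, and a few regions stand above the rest at 680 s, up to 81 in the upper panel.

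The 6 regions with the highest mean coverage all lay in the part found only in the long isoform, which held 44 of the 62 regions. Coverage is a sum over positions, which favours the wider regions 33 and 56, of 41 and 44 nt. Regions were not ranked by coverage per nt. Region 33, at 5837073 to 5837113 and 41 nt long, led with a mean of 36.4. In the 1 mW, 1x series it stood at 3 at 30 s, 3 at 180 s and 30 at 680 s. In the same order of times it had 17, 22 and 41 in the 1 mW, 4.2x series, 22, 26 and 66 in the 2.6 mW, 1x series, and 61, 65 and 81 in the 2.6 mW, 4.2x series. It was highest at 680 s in every series, and only the 2.6 mW, 4.2x series had most of that value at 30 s. Among the regions of the whole dataset its mean ranked 282nd.

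Region 19, at 5841594 to 5841610 and only 17 nt long, had 5, 3 and 21 in the 1 mW, 1x series and 17, 13 and 56 in the 1 mW, 4.2x series. With 2.6 mW it had 18, 20 and 67 at 1x and 31, 40 and 80 at 4.2x. It lies 3871 nt from the 5′ end, just past the short isoform, and reached nearly the value of region 33 although it is narrower. Region 53, at 5827307 to 5827323 near the 3′ end, had a mean of 30.3 and reached 73 in the strongest library. Regions 56 and 52, also near the 3′ end, had means of 22.4 and 21.6, and region 24 had 20.9. The other regions longer than 17 nt were 56, with 44 nt, and 37, with 25 nt and a mean of 19.0. In the short part the highest was region 4, with 20.5.

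Total Neat1 coverage rose with each factor of the design. At 1 mW and 1x Dazl it was 121 at 30 s, 80 at 180 s and 668 at 680 s. At 1 mW and 4.2x Dazl it was 584, 383 and 1206. At 2.6 mW it was 627, 636 and 1615 with 1x Dazl, and 1308, 1469 and 1996 with 4.2x. The libraries of 30 s and 180 s at 1 mW and 1x stood far below the rest, and the dip at 180 s appeared at both Dazl levels of 1 mW and at neither of 2.6 mW.

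In order of level, 11 steps separate these 12 totals. Only 3 steps were larger than the residual spread of the additive fit, which was 0.60 on the log2 scale. They lay between 121 and 383, between 383 and 584, where the step of 0.60 barely passed it, and between 668 and 1206. The other neighbours, such as 627 and 636, differed by less than that spread.

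Neat1 coverage was higher at 4.2x than at 1x Dazl in 6 of 6 matched pairs. With 1 mW the fold differences were 4.83 at 30 s, 4.79 at 180 s and 1.81 at 680 s, and with 2.6 mW they were 2.09, 2.31 and 1.24, so the difference was smallest at 680 s at both powers. In limma, fitted over all genes on log2(value + 3), Neat1 differed by 1.31 ± 0.44 (SE, log2, adjusted p = 0.00582). Of all genes 82.4% passed in the same direction, and the median over all genes was 0.88.

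Raising the laser from 1 to 2.6 mW also raised Neat1 in 6 of 6 pairs. At 1x Dazl the folds were 5.18 at 30 s, 7.95 at 180 s and 2.42 at 680 s, and at 4.2x they were 2.24, 3.84 and 1.66. The limma difference was 1.73 ± 0.44 (SE, log2, adjusted p = 0.000204), where 93.4% of genes passed and the median was 1.22. Between 680 and 30 s Neat1 rose in 4 of 4 series, by 1.36 ± 0.53 (SE, log2, limma adjusted p = 0.0202), where 73% of genes passed and the median was 1.03. This last call was lost, with limma adjusted p between 0.0683 and 0.0899, when the 30 s or 680 s library of 1 mW and 1x, the 680 s library of 1 mW and 4.2x, the 680 s library of 2.6 mW and 1x, or the 30 s library of 2.6 mW and 4.2x was left out. A slope on log2 time did not pass either (0.28 ± 0.15 per doubling, limma adjusted p = 0.116).

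As a share of its library Neat1 was nearly level. It held between 0.680% and 0.840% of the coverage, a 1.24-fold range, while its total ranged 24.95-fold and the library totals 22.4-fold. The lowest share was at 30 s, 2.6 mW and 1x Dazl and the highest at 680 s, 1 mW and 1x. In the weakest libraries the share says little about binding, since the lowest value of a region is 1. At 180 s, 1 mW and 1x, 50 of the 62 Neat1 regions and 80.5% of all regions stood at it. The share there rests largely on the number of regions, 62 of 8338. With each library centred on its median gene, Neat1 did not pass for Dazl level (0.40 ± 0.27, limma adjusted p = 0.304), laser power (0.49 ± 0.27, adjusted p = 0.153) or time (0.26 ± 0.33, adjusted p = 0.605). Of all genes 3.06%, 10.8% and 10.2% were called higher in these 3 centred comparisons and 15.1%, 22.9% and 19.5% lower. Scaled to equal library totals, Neat1 differed by 0.04, -0.05 and 0.09.

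**Figure D2:**
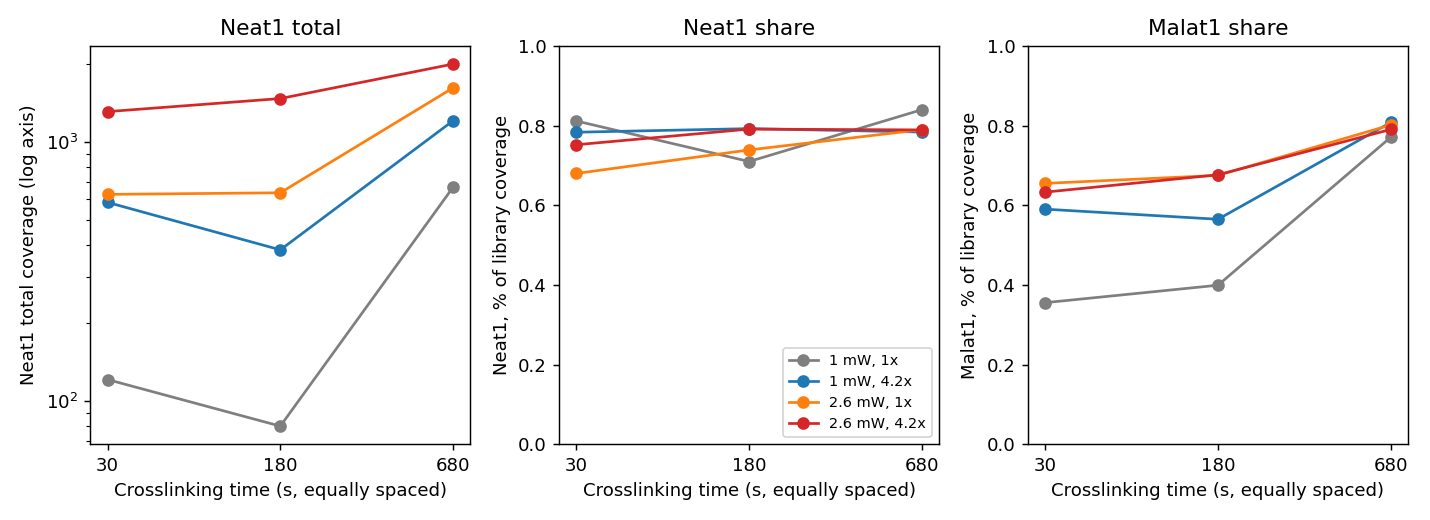
Neat1 total coverage on a log axis (left), and the percent of library coverage held by Neat1 (middle) and by Malat1 (right), against crosslinking time in s; each point is 1 library and each line joins the 3 libraries of 1 laser power and Dazl level. The Neat1 total ranges from 80 to 1996, while its share stays between 0.680% and 0.840%, and the Malat1 share ranges from 0.355% to 0.808%.

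Malat1, which marks nuclear speckles and lies next to Neat1 on chromosome 19, had a less level share. Neat1 coverage was 2.28 times that of Malat1 at 30 s, 1 mW and 1x Dazl and 1.78 times at 180 s, against 1.09 at 680 s. In this series 45 of 62 Neat1 and 26 of 38 Malat1 regions stood at the lowest value of 1 at 30 s. At 180 s 50 and 31 did. The first 2 ratios thus lean in part on the unequal numbers of regions. At 30 s regions 50 and 60 also held 23.1% of Neat1 coverage in this series. Without these 2 regions, chosen after their values were seen, the Neat1 total there was 93 in place of 121. The ratio was not tested without them. With 1 mW and 4.2x the ratio was 1.33, 1.40 and 0.970, and with 2.6 mW it was 1.04, 1.09 and 0.985 at 1x and 1.19, 1.17 and 0.998 at 4.2x. The ratio was lower at 680 than at 30 s in 4 of 4 series, by a mean log2 difference of -0.46 ± 0.43 (SD, n = 4, exact permutation p = 0.0154, two-sided). Over the 6 exact tests made on the ratio and on the short part, its Benjamini-Hochberg value was 0.0926, so it did not pass. Without the 30 s or the 680 s library of 1 mW and 1x, the difference was -0.26 with an exact p of 0.0926, and without the 30 s or the 680 s library of 2.6 mW and 4.2x it was -0.53 with an exact p of 0.0556.

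The ratio differed by -0.39 ± 0.44 (SD, n = 6, exact sign-flip p = 0.0625, adjusted 0.188) between 2.6 and 1 mW, and was higher at 2.6 mW in 1 of 6 pairs. Between Dazl levels it differed by -0.16 ± 0.36 (SD, n = 6, exact sign-flip p = 0.375, adjusted 0.45), and was higher at 4.2x in 3 of 6 pairs. The smallest p that 6 pairs allow is 0.0312. Neither difference was distinguishable from the spread between pairs.

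The share of Neat1 coverage in the short isoform part was close to 27% in most libraries. In the 1 mW, 1x series it was 19.8% at 30 s, 25.0% at 180 s and 29.2% at 680 s, and in the 1 mW, 4.2x series 26.5%, 27.9% and 27.0%. With 2.6 mW it was 26.8%, 27.5% and 26.0% at 1x and 27.1%, 27.6% and 26.3% at 4.2x. Apart from the 1 mW, 1x series, all values lay between 26.0% and 27.9%. The share of regions in that part was 29.0%.

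For no factor did this share pass the exact test. It was higher at 4.2x Dazl in 5 of 6 pairs, by 1.36 ± 3.08 percentage points (SD, n = 6, exact sign-flip p = 0.281, adjusted 0.422). Between 2.6 and 1 mW it differed by 0.97 ± 3.47 points (SD, n = 6, exact sign-flip p = 0.688), with 3 of 6 pairs higher. Between 680 and 30 s it differed by 2.06 ± 4.91 points (SD, n = 4, exact permutation p = 0.259, adjusted 0.422), with 2 of 4 series higher. The power difference turned to -0.23 without the 30 s library of 1x Dazl at either power, and the time difference to -0.38 without the 30 s or the 680 s library of 1 mW and 1x. In the 30 s library of 1 mW and 1x, regions 50 and 60 near the 3′ end had 14 each and made up 23.1% of all Neat1 coverage. Without these 2 regions, chosen after their values were seen, the short part held 25.8% in that library, and the differences were 0.34 points for Dazl level, -0.37 for power and 0.73 for time.

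Region by region, nearly all of Neat1 shifted upward with light. In the limma fit over all 8338 regions, 58 of 62 were higher at 2.6 mW (93.5%, against 91.5% of all regions). Between Dazl levels 48 passed (77.4%, against 74.6%), and between 680 and 30 s 43 (69.4%, against 61.5%). In these fits of the deposited values none was lower. All 62 fitted differences were above 0 in each comparison, with medians of 1.17, 0.81 and 1.02 for power, Dazl and time, beside 1.12, 0.77 and 0.87 over all regions. These shares lie near those of the whole dataset. In the short part 16, 14 and 13 of 18 regions passed, and in the long part 42, 34 and 30 of 44.

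With libraries centred on their median region, few Neat1 regions departed from it. For Dazl level 4 were higher (2.93% of all regions were) and 1 lower (15.7%). For laser power 1 was higher (4.01%) and 5 lower (21.5%). For time 9 were higher (12.9%) and 3, regions 8, 44 and 60, were lower (19.4%). Of the 9 that were higher, 8 stood at 1 in every 1 mW library of 30 and 180 s, so the size of their change depends on that lowest value and on the pseudocount of 3.

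**Figure D3:**
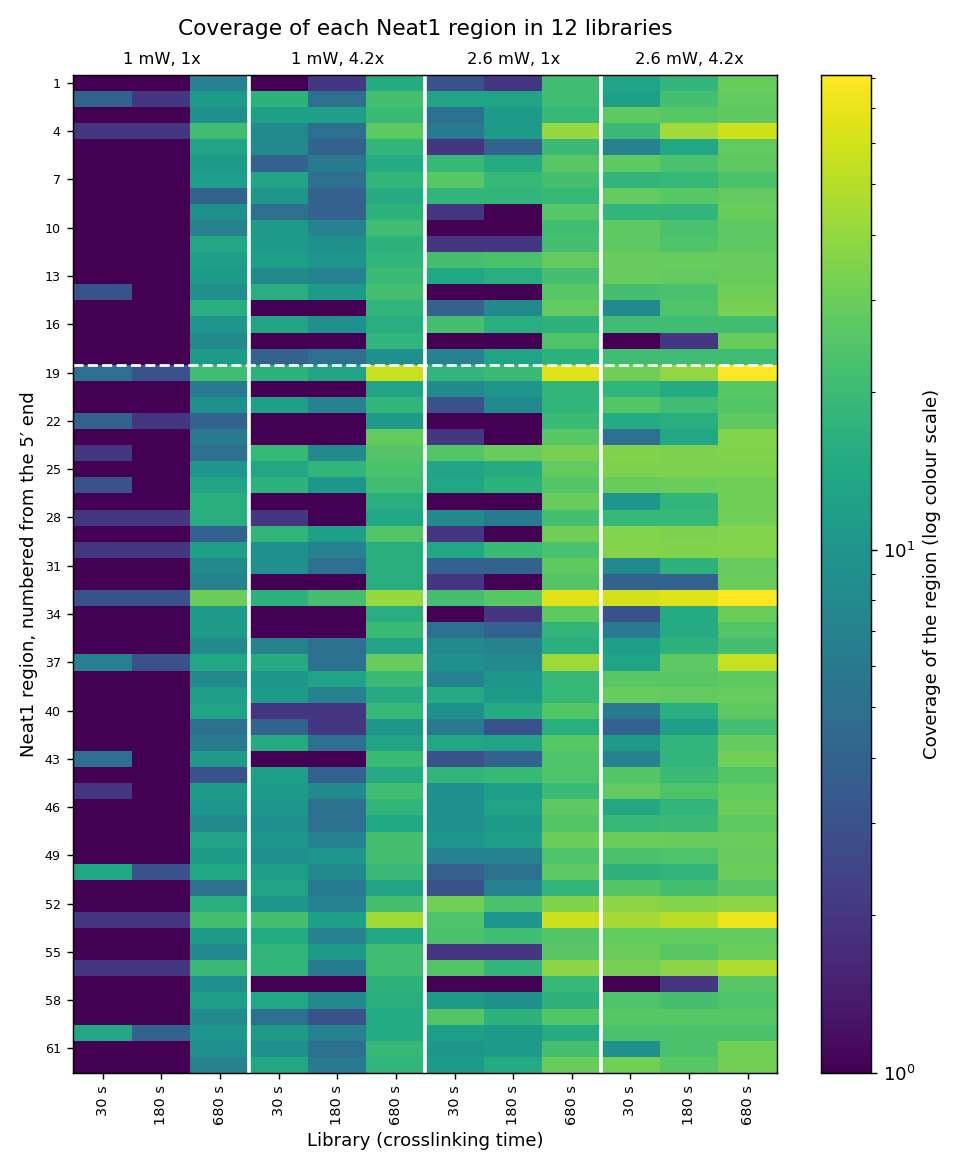
Coverage of each Neat1 region (rows, numbered from the 5′ end, with a dashed line below region 18) in each of the 12 libraries (columns, by time within each laser power and Dazl level), on a log colour scale. In the 1 mW, 1x series most regions stand at 1 at 30 and 180 s, and regions 17 and 57 stay at 1 or 2 in every library of 30 and 180 s.

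Many Neat1 regions were at the lowest value of 1 in the weak libraries. At 1 mW and 1x Dazl 45 of 62 (72.6%) stood at 1 at 30 s and 50 (80.6%) at 180 s, close to 74.0% and 80.5% of all regions, and 0 did at 680 s, against 7.99%. At 1 mW and 4.2x Dazl 12 did at 30 s and 12 at 180 s (19.4% each, against 27.5% and 30.6%). With 2.6 mW it was 7 and 10 at 1x (16.5% and 23.4% of all regions), and 2 and 0 at 4.2x (6.78% and 4.38%). In the whole of the 1 mW libraries of 30 and 180 s, 9 Neat1 regions never rose above 1 (14.5%, against 24.6% of all regions), 2 of them in the short part.

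Regions of Neat1 differed in when they filled. The 4 latest, by the mean log2 ratio of 680 over 30 s, were regions 17, 34, 57 and 23. Region 17, at 5842655 to 5842671 in the short part, stood at 1 at 30 s in all 4 series and at 1 or 2 at 180 s. At 680 s it reached 8 and 18 with 1 mW at 1x and 4.2x Dazl, and 24 and 29 with 2.6 mW. Region 57, at 5826452 to 5826468 near the 3′ end, had the same course, with 1 at 30 s throughout, 1 or 2 at 180 s, and 9, 17, 19 and 26 at 680 s. These 2 regions lie over 16000 nt apart on the RNA.

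Region 34, at 5836961 to 5836977, had 1, 1 and 16 at 1 mW and 4.2x Dazl and 3, 15 and 30 at 2.6 mW and 4.2x. Region 23, at 5840097 to 5840113, had 1, 1 and 28 and then 5, 14 and 36 in the same libraries. Neither rose above 2 at 30 or 180 s in the 1x libraries. At 680 s with 2.6 mW and 4.2x Dazl these 4 regions stood between 26 and 36, where the median Neat1 region had 29.

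By the same mean over the 4 series, the 4 earliest regions were 60, 44, 8 and 24. Region 60, at 5826278 to 5826294, had 14, 4 and 10 at 1 mW and 1x Dazl, 11, 7 and 15 at 1 mW and 4.2x, 12, 11 and 15 at 2.6 mW and 1x, and 23, 23 and 23 at 2.6 mW and 4.2x. It was the only Neat1 region lower at 680 s than at 30 s with 1 mW and 1x. Region 24, at 5839868 to 5839884, had 25, 29 and 33 at 2.6 mW and 1x and 35, 34 and 35 at 4.2x, but 2, 1 and 5 with 1 mW and 1x. Region 44 had 25, 20 and 25 and region 8 had 28, 26 and 28 in the 2.6 mW, 4.2x series. With 1 mW and 1x both stood at 1 at 30 s, and they reached only 3 and 4 at 680 s. Of these 4, only region 60 was early at 1 mW and 1x. The low 680 s values of regions 44, 8 and 24 in that series keep their mean ratio small. In the 1 mW 4.2x, 2.6 mW 1x and 2.6 mW 4.2x series, region 16 had 13, 22 and 21 at 30 s. At 680 s it had 16, 17 and 21. Region 54 had 15, 23 and 28 at 30 s, and 14, 25 and 28 at 680 s. With 1 mW and 1x regions 16 and 54 rose from 1 to 10 and 11, and neither was among the 4 earliest.

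Grouped by the 2.6 mW, 4.2x series, 28 regions (45.2%, against 47.6% of all regions) were full at 30 s, meaning at least 90% of their value at 680 s. A further 8 (12.9%, against 14.6%) were late, with at most 50% of it at 180 s, and 26 lay between. By the same limits 3 regions were full in the 1 mW, 1x series (10.4% of all regions were), 3 in the 1 mW, 4.2x series (16.2%) and 6 in the 2.6 mW, 1x series (14.2%). Late ones were then 62 (100%, against 91% of all regions), 53 (85.5%, against 84.5%) and 37 (59.7%, against 57.8%). The limit of 90% fell in a gap, with region 49 at 79.3% and region 26 at 93.5%. The late limit did not: region 5 stood at exactly 50% and region 41 at 54.5%. These limits were chosen after the values were seen. Full regions were 9 of 18 in the short part and 19 of 44 in the long part, and late ones 2 and 6, so both kinds were spread over the RNA.

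Late and full regions had medians close to each other at 680 s. In the series that defined them the late regions had a median of 4.5 at 30 s and 30.0 at 680 s, and the full regions 28 at both times. In 2 of the series that did not define them, the order at 30 s was the same. With 1 mW and 4.2x Dazl the full regions together had 64.8% of their 680 s coverage at 30 s, those between 42.0% and the late ones 22.7%. With 2.6 mW and 1x the shares were 55.1%, 32.5% and 14.3%. At 1 mW and 1x Dazl no such order was seen, with 17.3%, 18.2% and 20.2%. The median of the late regions at 680 s was 10, 18 and 25.5 in these 3 other series, in the order 1 mW 1x, 1 mW 4.2x and 2.6 mW 1x, beside 10, 18 and 22.5 for the full ones. Without regions 19 and 37, the highest late ones and left out after their values were seen, it was 8.5, 17.5 and 24.5. Values are tied between libraries, so the shared order is given as a description.

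**Figure D4:**
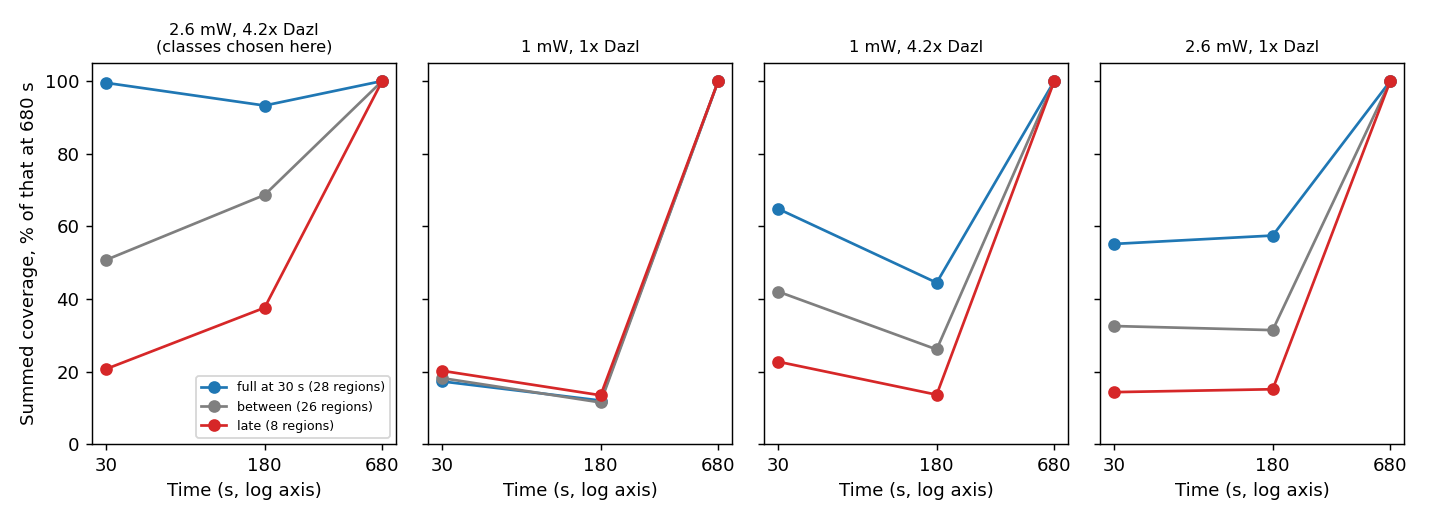
Summed coverage at 30, 180 and 680 s as a percent of that at 680 s, for the 28 Neat1 regions full at 30 s, the 26 between and the 8 late ones, in the series that defined them (left) and in the other 3; each point sums 1 library, and time is on a log axis. At 30 s the full regions stand above the late ones in 3 panels (99.5%, 64.8% and 55.1% against 20.7%, 22.7% and 14.3%), and the 3 groups coincide at 1 mW and 1x Dazl.

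Across the 62 regions the log2 ratio of 680 over 30 s was alike between the 3 stronger series, with Spearman's rho of 0.60, 0.52 and 0.48. Between each of them and the 1 mW, 1x series rho was 0.20, -0.07 and -0.04. Values at 680 s were more alike, with rho from 0.37 to 0.82. Regions share their libraries, so these are given without a test. Most 30 s values of the 1 mW, 1x series were tied at 1.

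The dip at 180 s was also seen across regions. With 1 mW and 4.2x Dazl 42 of 62 regions were lower at 180 s than at 30 s and 7 were higher (54.7% of all regions were lower). With 1 mW and 1x 11 were lower and 0 higher (15.7%), the other 51 being tied. With 2.6 mW 22 were lower and 28 higher at 1x (45%), and 20 lower and 31 higher at 4.2x (38.6%). Library totals fell between these times in 3 of 4 series, from 74552 to 48334 at 1 mW and 4.2x, from 14910 to 11271 at 1 mW and 1x, and from 92228 to 86071 at 2.6 mW and 1x, where the Neat1 total did not fall.

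The parts of Neat1 filled at much the same pace, except at 1 mW and 1x Dazl. At 30 s the whole RNA had 18.1%, 48.4%, 38.8% and 65.5% of its 680 s coverage in the 1 mW 1x, 1 mW 4.2x, 2.6 mW 1x and 2.6 mW 4.2x series. In the same order the short part had 12.3%, 47.5%, 40.0% and 67.6%, and the long part 20.5%, 48.8%, 38.4% and 64.8%. Among the 215 genes with a mean coverage of at least 100 the medians were 16.7%, 50.3%, 48.3% and 73.9%, with 125, 90, 45 and 51 genes below Neat1. In the 2 series of 2.6 mW Neat1 thus filled later than most of these genes, which was not tested.

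Of 37 genes for paraspeckle proteins, 16 had a region of their own. Coverage on these mRNAs was higher at 4.2x Dazl for 14 of 16, where 82.4% of all genes were called, with a median of 1.00 beside 0.88 over all genes. It was higher at 2.6 mW for 16 of 16, where 93.4% of all genes were, with a median of 1.62 beside 1.22. It was higher at 680 than at 30 s for 13 of 16, where 73% of all genes were, with a median of 1.12 beside 1.03. These counts lie near the shares of all genes. In these fits none was lower. Hnrnpk, a poly(C)-binding protein, had the highest mean coverage of them, 298 in 12 regions, and rose by 1.26 ± 0.40 with Dazl, 1.78 ± 0.40 with power and 1.05 ± 0.48 with time (SE, log2). Sfpq, a core paraspeckle protein that binds Neat1, had 198 in 11 regions and rose by 1.24 ± 0.38, 1.74 ± 0.38 and 1.01 ± 0.47.

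Ewsr1, an RNA-binding protein, had 110 in 8 regions and rose by 1.01 ± 0.36, 1.85 ± 0.36 and 1.17 ± 0.44. Hnrnph1, a splicing regulator, had 99.8 in 6 regions and rose by 1.38 ± 0.36, 1.63 ± 0.36 and 1.12 ± 0.44. Dazap1, an RNA-binding protein named for its association with Dazl, rose by 1.11 ± 0.35 with Dazl and 1.71 ± 0.35 with power but did not pass for time (0.73 ± 0.43, limma adjusted p = 0.118). Tardbp, which codes for TDP-43, did not pass for Dazl level (0.16 ± 0.29, limma adjusted p = 0.592) and rose by 2.77 ± 0.35 with time. Rbm7 did not pass for time (0.77 ± 0.39, limma adjusted p = 0.0644), and Zfp24 passed for neither Dazl level (0.25 ± 0.14, limma adjusted p = 0.0919) nor time (0.06 ± 0.18, limma adjusted p = 0.747). With libraries centred on their median gene, 0 of the 16 were higher and 2, Tardbp and Zfp24, lower for Dazl level (3.06% and 15.1% of all genes were). For power 3 were higher and 1 lower (10.8% and 22.9%), and for time 2 higher and 1 lower (10.2% and 19.5%). Genes of the list such as Pspc1 and Rbm14 had no region, which does not show that they were unbound.

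Of the other noncoding RNAs in the list, Malat1 and Gas5 had regions and Xist, Meg3 and Kcnq1ot1 did not. Gas5, the host of small nucleolar RNAs, had 2 regions with a mean coverage of 27.8 and rose by 1.81 ± 0.30 with Dazl (SE, log2, limma adjusted p = 2.07e-06). The genes whose centred profile over the 12 libraries was most like that of Neat1, among 214 with a mean coverage of at least 100, were Calr, Igfbp4, Tm9sf3, Serpinh1 and Fn1. Their Pearson correlations were 0.987, 0.986, 0.985, 0.984 and 0.984, with a median of 0.920 over these 214 genes. Most genes of such coverage thus followed nearly the same centred profile, and genes of lower coverage were not compared. Malat1 ranked 23rd with 0.966.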

How the data were processed

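The deposited values are a score per interval, called normalized coverage by the authors in their file names, with whole numbers from 1 to 24 and no header or strand. FastQC and Bowtie2 with mm10 are named, without versions, per the submitters' processing notes. How reads were counted, normalized and selected was not given in the sources used here, so depth in reads is unknown and no counting interval is given.

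Intervals at most 10 nt apart were joined, and regions were placed in the RefSeq gene spans of GRCm38.p6 (mm10). The table gives no exons or isoform ends, so the short isoform part was set at 3200 nt; the minus strand of Neat1 is textbook knowledge. Sequences were not used here.

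Genes and regions were tested with limma 3.58.1 (R 4.3.3) on log2(value + 3), with terms for time, power and Dazl level and no interaction, and eBayes (trend, robust) with 7 residual degrees of freedom and Benjamini-Hochberg adjustment; called means an adjusted p below 0.05. The prior degrees of freedom were 107 for genes and infinite for regions, so the p-values rest mostly on a spread pooled over features. All features share the same 12 libraries, so this pooling adds no independent libraries. The p-values do not measure a spread between replicates. A fold on this scale understates the change of low values. Shares and ratios were tested with exact two-sided permutations over matched libraries. The fit was tested on simulated data with 200 changed features of 4-fold size. It recovered 94% to 99% of them, with 5 to 11 false calls. The simulated noise was independent for each value, whereas the deposited values are tied between libraries, so this does not show how reliable the calls here are. Alternatives were other pseudocounts, scalings, filters, joining distances, boundaries and leaving out each library.

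Named by rule are the 6 regions with the highest mean, the 4 earliest and the 4 latest, and all over 17 nt. Others, such as regions 16 and 54, were named after their values were seen. From the paraspeckle list the text names the 4 with the highest coverage that passed all 3 comparisons and every member that missed a comparison. The gene, its regions and all lists were chosen with earlier results of these data known.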

Additional observations from a re-analysis of the deposited data

Results flagged for a closer look

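In 3 cases a contrast of Neat1 ran in opposite directions in all libraries of both groups compared, and none of these differences was tested. Between 180 and 30 s the log2 change of the Neat1 total was -0.60 at 1x and -0.61 at 4.2x Dazl with 1 mW, but 0.021 and 0.17 with 2.6 mW. The share of the short isoform part changed between 680 and 30 s by 9.36 and 0.49 percentage points at 1x and 4.2x with 1 mW, and by -0.79 and -0.84 points with 2.6 mW. The first of these values rests on the 30 s library in which regions 50 and 60 held 23.1% of Neat1 coverage. The log2 ratio of Neat1 to Malat1 differed between 4.2x and 1x Dazl by -0.78, -0.34 and -0.17 at 30, 180 and 680 s with 1 mW, and by 0.19, 0.10 and 0.019 with 2.6 mW. In the 1x libraries of 30 and 180 s with 1 mW most regions of both genes stood at the lowest value of 1. The value of -0.78 uses the same 30 s library in which regions 50 and 60 held 23.1% of Neat1 coverage. With 1 library per condition these patterns have no replicate.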

How the results depend on the processing

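Centred on the median, the total differed by 0.40, 0.49 and 0.26 for Dazl, power and time, and 4, 1 and 9 regions were called higher. Scaled to the mean library total, chosen after seeing the data, it differed by 0.043, -0.054 and 0.087, with 0, 0 and 11 regions called by limma, and 13, 13 and 15 at an unadjusted p below 0.05. The slope on log2 time was 0.28. Leaving out each library in turn gave totals of 1.08 to 1.56 for Dazl, 1.499 to 1.98 for power and 1.11 to 1.73 for time, where the call was lost in 5 of 12 cases. Region counts were then 36 to 50, 52 to 58 and 31 to 56. The short part's share differed by 0.29 to 2.07, -0.23 to 1.80 and -0.38 to 3.02 points, and by 0.34, -0.37 and 0.73 without regions 50 and 60, chosen after seeing the data. The log2 ratio to Malat1 differed by -0.24 to -0.04, -0.48 to -0.25 and -0.59 to -0.26. Leaving out regions at the lowest value removed none from Neat1. The cause of these changes was not tested. Among alternatives that left no library out, 29 of 37 tested values kept the direction and the side of the threshold. Some of the 29 could not have changed. A boundary of 3500 nt moved no region, and leaving out regions at the lowest value removed none. Taking the ratio to Malat1 per covered nt shifts all libraries by the same amount. Of 21 counts of called regions, 15 stayed within 1.5 times the reported count. Depth in reads is unknown, so what it limits cannot be given.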
